A study of Homo sapiens with 12 samples.

Results

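RNA-Seq levels of 33 genes of glucose use were followed from human embryonic stem cells (hESCs) to blood progenitors. The genes were a list of glucose and lactate transporters, glycolytic enzymes, lactate dehydrogenase subunits, pyruvate dehydrogenase kinases, pentose phosphate enzymes and genes of the hypoxia-inducible factor (HIF) pathway, and they were picked by symbol from a table of 56266 genes. All 33 symbols were found. Of these, 32 reached 1 TPM (a transcript level scaled to a fixed total per library) in 2 or more libraries and were tested among 21543 genes, while PDK4 did not.

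The series deals with the loss of the transcription factor GATA2 during blood formation from H1, an established hESC line. The libraries used here form 5 groups of 2: KO hESCs, WT HEs, KO HEs, WT HPCs and KO HPCs. KO stands for the label GATA2-/-, a targeted H1 clone with a PGK-neomycin cassette in exon 3, and WT stands for unmodified H1. HEs (hemogenic endothelium) were sorted as CD34+CD31+CD43- cells at day 8 and HPCs (hematopoietic progenitor cells) as CD34+CD43+ cells at day 9 of co-culture with OP9, a mouse stromal line, in serum medium. The hESCs were grown on Matrigel in defined medium, so that stage, medium and stroma cannot be told apart in a comparison with hESCs. No low-oxygen treatment is described. All KO libraries come from 1 clone, and WT hESCs were not analysed here. Nothing in the labels says that 2 libraries of a group came from separate cultures, so the p-values measure only the spread between these libraries. The file headers name the 2 KO hESC libraries with P38 and P58, whose meaning is not given there, and every comparison with hESCs rests on these 2.

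Glycolysis turns glucose into pyruvate. Pyruvate is then either reduced to lactate and exported, or taken into mitochondria by pyruvate dehydrogenase, which the PDK kinases switch off. The pentose phosphate pathway branches off at glucose-6-phosphate and supplies NADPH and ribose. HIF-1α (HIF1A) activates many glycolytic genes when oxygen is low. When oxygen is present, prolyl hydroxylases (EGLN1, EGLN3) and VHL mark the HIF-α proteins, HIF-1α and HIF-2α (EPAS1), for destruction. Since this control acts largely on the proteins, mRNA levels of HIF1A do not report HIF activity. Pluripotent stem cells are known for a high glycolytic rate, and endothelial cells also rely mainly on glycolysis.

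The marker sums followed the labels, although not every marker gene did, and LIN28A was still at 97.1 to 244 TPM outside hESCs. Summed over 8 pluripotency genes, the level was 5030 to 5535 TPM in hESCs and 144 to 300.5 TPM elsewhere. Summed over 11 endothelial genes, it was 3295 to 3929 TPM in HEs, 506 to 916 TPM in HPCs and 103 to 126 TPM in hESCs. Summed over 12 erythroid genes, it was 120 to 194 TPM in WT HEs and 34.4 to 49.4 TPM in KO HEs. In replicates 1 and 2 the erythroid sum was 5594 and 15045 TPM in WT HPCs and 8540 and 16809 TPM in KO HPCs. Summed over 6 megakaryocyte and platelet genes, it was 113 to 136 TPM in WT HEs, 39.9 to 63.1 TPM in KO HEs and 905 to 1677 TPM in HPCs. The 10 pan-hematopoietic genes summed to 35.2 to 52.6 TPM in hESCs, 328 to 420 TPM in HEs and 674 to 950 TPM in HPCs. Of these, PTPRC did not exceed 3.09 TPM in any library. ITGB2 was lower in KO HPCs (11.8 and 16.7 TPM) than in KO HEs (40.05 and 32.3 TPM). The 7 macrophage and granulocyte genes summed to 1.28 to 1.68 TPM in hESCs, 9.13 to 27.8 TPM in HEs and 71.95 to 107 TPM in HPCs. Mesenchymal and stromal genes summed to 541 to 831 TPM in HEs, 139 to 299 TPM in HPCs and 293 to 780.3 TPM in hESCs, where COL3A1, LUM and DCN were at 0. Proliferation genes summed to 1477 to 1599 TPM in hESCs and 776 to 1009 TPM elsewhere. Mitochondrially encoded genes took 6.44% of all TPM in KO HEs, 6.56% in WT HEs, 9.14% in WT HPCs, 9.17% in KO hESCs and 14.95% in KO HPCs. GATA2 itself was at 2.05 and 5.54 TPM in KO hESCs, 107 and 78.03 in WT HEs, 111 and 94.1 in KO HEs, 290.1 and 204 in WT HPCs, and 112 and 83.8 in KO HPCs. It was thus not lower in KO HEs than in WT HEs, and since a disrupted locus can still give mRNA, GATA2 TPM does not check the labels. TPM carries no read depth, so the depth behind each value is unknown.

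**Figure D1:**
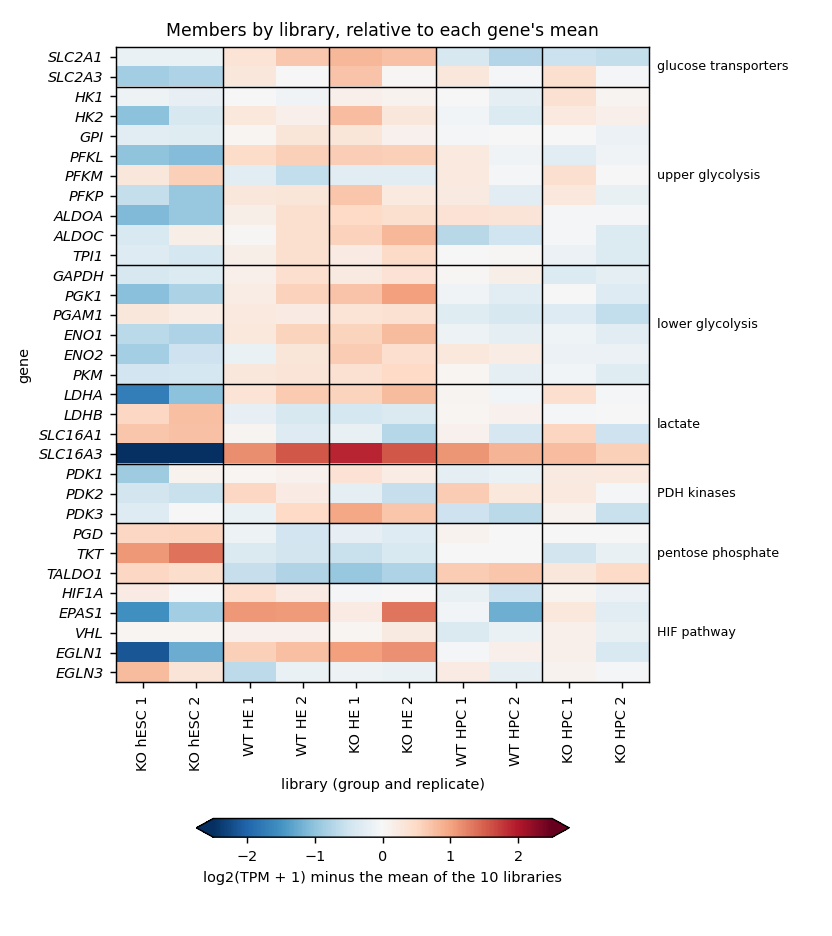
Level of the 32 tested genes in each of the 10 libraries, as log2(TPM + 1) minus the gene's mean over the 10 libraries, with genes in rows by role and libraries in columns. SLC16A3 in the 2 KO hESC libraries lies below the lower end of the colour scale. The hESC columns are low for most glycolytic genes and high for LDHB, TKT and TALDO1.

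Most genes of the list differed between hESCs and HEs labelled GATA2-/-. Of 32 genes, 18 rose, 6 fell and 8 did not pass the test (limma on log2(TPM + 1), adjusted p under 0.05). Among all genes tested, 13.9% were higher and 16.1% lower, and the median difference was 0.77 on the log2 scale for the 32 genes against -0.02 for all genes. Of the 15 glycolytic enzymes, 12 rose and 1, PFKM, fell. Both glucose transporters rose, and all 3 pentose phosphate enzymes fell. The 15 glycolytic enzymes took 1.44% ± 0.02 (SD, n = 2) of all TPM in KO hESCs, 2.81% ± 0.19 in KO HEs and 2.53% ± 0.30 in WT HEs. The pluripotency, endothelial and proliferation sums given above moved with this stage, and their part in the result was not tested. In bulk RNA, fewer cells of a type and less RNA per cell cannot be told apart.

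Of the 33 genes, the lactate transporter SLC16A3 had the largest difference from hESCs. SLC16A3 (MCT4), the lactate exporter of strongly glycolytic cells (ENSG00000141526, hg19 chr17:80175810-80219005, plus strand), was at 2.33 and 14.8 TPM in KO hESCs, 430.2 and 564 in WT HEs, 722 and 563 in KO HEs, 416 and 349 in WT HPCs, and 329 and 292 in KO HPCs. Both hESC libraries were far below all others, and they also differed from each other. The difference in log2(TPM + 1), KO HE minus KO hESC, was 6.46 ± 0.57 (SE, adjusted p = 6.67e-05). SLC16A1 (MCT1), which carries lactate either way, was at 228 and 234 TPM in KO hESCs, 148 and 112 in WT HEs, 124 and 85.3 in KO HEs, 151 and 105 in WT HPCs, and 205 and 97.8 in KO HPCs. Its KO HE libraries lay below the hESC libraries, and its log2 difference was -1.16 ± 0.35 (SE, adjusted p = 0.0333). That call was lost when any of these 4 libraries was left out (adjusted p = 0.0534 to 0.189). Of the 2 transporters together, SLC16A3 made up 1.01% and 5.92% of TPM in the hESC libraries and 85.3% and 86.9% in the KO HE libraries.

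The lactate dehydrogenase subunits moved in opposite directions. LDHA, the subunit favouring lactate formation, was at 451 and 733 TPM in KO hESCs, 1905 and 2355 in WT HEs, 2204 and 2595 in KO HEs, 1570.2 and 1419 in WT HPCs, and 2011 and 1468 in KO HPCs, and both KO HE libraries exceeded both hESC libraries. Its log2 difference was 2.05 ± 0.25 (SE, adjusted p = 0.000371). LDHB, the subunit of tissues that use lactate, was at 1438 and 1699.6 TPM in KO hESCs, 877 and 769 in WT HEs, 744 and 789 in KO HEs, 1048 and 1085 in WT HPCs, and 984 and 1012 in KO HPCs. Here the hESC libraries were the highest of the 10, and the log2 difference was -1.03 ± 0.13 (SE, adjusted p = 0.000577). LDHB made up 76.1% and 69.9% of LDHA plus LDHB TPM in the hESC libraries and 25.2% and 23.3% in the KO HE libraries.

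Transcripts of both glucose transporters rose. SLC2A1 (GLUT1), the widely used basal transporter, was at 228 and 229.6 TPM in KO hESCs, 324 and 408 in WT HEs, 458 and 429 in KO HEs, 195 and 154 in WT HPCs, and 178 and 169 in KO HPCs, and the 4 HE libraries were the highest. Its log2 difference, KO HE minus KO hESC, was 0.95 ± 0.16 (SE, adjusted p = 0.00254). SLC2A3 (GLUT3), a transporter of high glucose affinity, was at 256 and 276 TPM in KO hESCs, 576 and 467 in WT HEs, 775 and 481 in KO HEs, 568 and 461 in WT HPCs, and 622 and 453 in KO HPCs. Its hESC libraries were the lowest, and its log2 difference was 1.197 ± 0.25 (SE, adjusted p = 0.00685), although this call was lost when either hESC library was left out (adjusted p = 0.0736 and 0.0537).

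In the upper part of glycolysis, PFKL, the liver-type subunit of phosphofructokinase, was at 71.0 and 67.7 TPM in KO hESCs, 197 and 218 in WT HEs, 221 and 218 in KO HEs, 169.7 and 135 in WT HPCs, and 120.1 and 136 in KO HPCs. The HE libraries lay above all others and the hESC libraries below all others, and the log2 difference of KO HE minus KO hESC was 1.65 ± 0.15 (SE, adjusted p = 8.67e-05). PFKM, the muscle-type subunit, was at 65.5 and 80.8 TPM in KO hESCs, 44.5 and 34.4 in WT HEs, 43.9 and 43.7 in KO HEs, 63.2 and 51.4 in WT HPCs, and 70.8 and 53.5 in KO HPCs. It was highest in hESCs, apart from an overlap with KO HPCs, and its log2 difference was -0.72 ± 0.21 (SE, adjusted p = 0.0332). That call was lost when any KO hESC or KO HE library was left out. PFKP, the platelet-type subunit, had a log2 difference of 1.24 ± 0.24 (SE, adjusted p = 0.0045), and its adjusted p was 0.0566 without replicate 2 of KO hESCs. ALDOA, the main aldolase, was at 1128 and 1251 TPM in KO hESCs, 2664 and 3179 in WT HEs, 3433 and 3202 in KO HEs, 3106 and 3013 in WT HPCs, and 2348 and 2363 in KO HPCs, and no hESC library reached any other library. The log2 difference of ALDOA was 1.48 ± 0.14 (SE, adjusted p = 8.18e-05). HK2, the inducible hexokinase, was at 32.2 and 49.6 TPM in hESCs and 113 and 81.0 TPM in KO HEs, a log2 difference of 1.24 ± 0.24 (SE, adjusted p = 0.00494). Smaller rises passed the test for GPI at 0.49, ALDOC at 0.83 and TPI1 at 0.72 on the log2 scale, all of them calls that some left-out library removed. HK1, the housekeeping hexokinase, lay between 276 and 423 TPM in the 10 libraries, and its log2 difference of 0.28 ± 0.15 (SE, adjusted p = 0.201) did not pass the test.

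In the lower part, PGK1, an ATP-forming enzyme, was at 814 and 972 TPM in KO hESCs, 1910.2 and 2509 in WT HEs, 2766 and 3432 in KO HEs, 1572 and 1404 in WT HPCs, and 1668 and 1338 in KO HPCs. The hESC libraries were below all others, the KO HE libraries above all others, and the log2 difference was 1.79 ± 0.19 (SE, adjusted p = 0.000202). ENO1, the main enolase, was at 2255 and 2112 TPM in KO hESCs, 4320.1 and 5298 in WT HEs, 5243 and 6171 in KO HEs, 3300.4 and 3065 in WT HPCs, and 3327 and 2981 in KO HPCs, with the HE libraries highest and the hESC libraries lowest. Its log2 difference was 1.38 ± 0.15 (SE, adjusted p = 0.000243). ENO2, the neuronal enolase, rose by 1.21 and PKM, the pyruvate kinase of most proliferating and embryonic cells, by 0.90 on the log2 scale (adjusted p = 0.00166 and 0.00202). GAPDH, the most abundant of the 33 genes, lay between 6119 and 10698 TPM. It is often used as a reference gene, as it was for qRT-PCR in the study, and it was higher in KO HEs than in KO hESCs by 0.66 ± 0.15 (SE, adjusted p = 0.00957) on the log2 scale. That adjusted p was 0.08 without replicate 1 and 0.0616 without replicate 2 of KO hESCs, and 0.0602 without replicate 2 of KO HEs. PGAM1 was the only lower-glycolysis gene that did not pass the test here, with a log2 difference of 0.12 ± 0.14 (SE, adjusted p = 0.553).

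**Figure D2:**
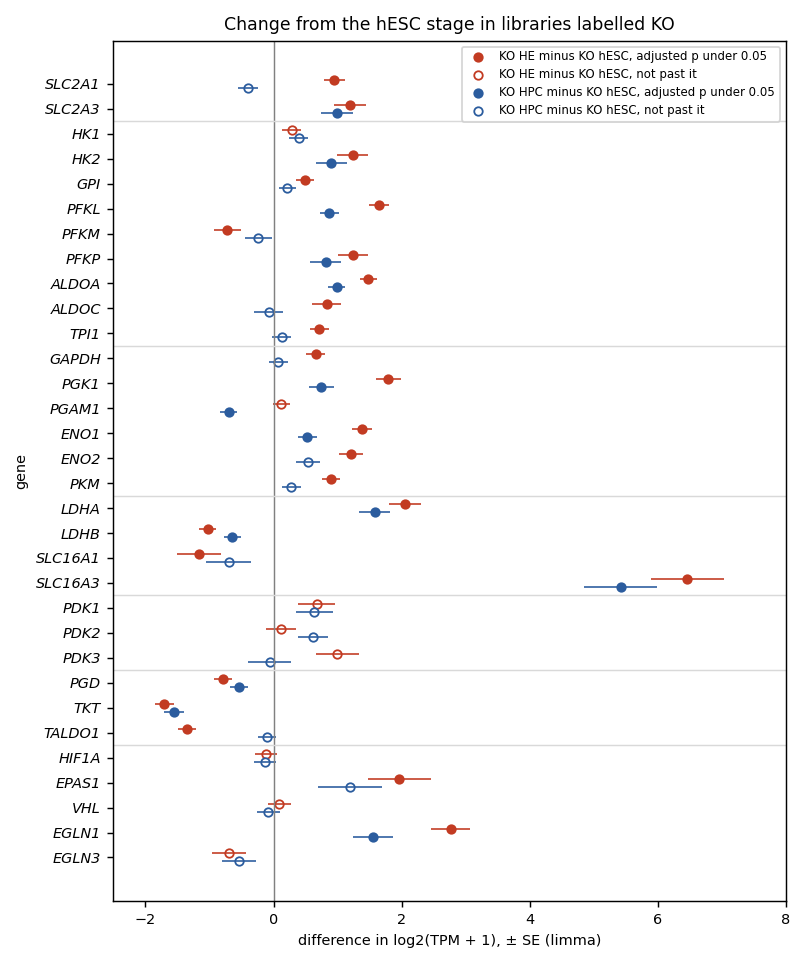
Difference in log2(TPM + 1) between KO HEs (red) or KO HPCs (blue) and KO hESCs for each of the 32 tested genes, with bars of 1 SE from limma and filled points for an adjusted p under 0.05. SLC16A3 stands far to the right at 6.46 and 5.42, and TKT lies at -1.70 and -1.56.

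The pentose phosphate enzymes went the other way. TKT (transketolase, ENSG00000163931, hg19 chr3:53258728-53290068, minus strand) was at 795 and 957 TPM in KO hESCs, 289 and 268 in WT HEs, 252 and 284 in KO HEs, 373 and 368 in WT HPCs, and 269 and 325 in KO HPCs. The hESC libraries were the highest by a wide margin, and the log2 difference of KO HE minus KO hESC was -1.70 ± 0.15 (SE, adjusted p = 7.12e-05). TALDO1 (transaldolase, ENSG00000177156, hg19 chr11:747415-765012, plus strand), which works with TKT in the non-oxidative branch, was at 303 and 286 TPM in KO hESCs, 141 and 125 in WT HEs, 108 and 123 in KO HEs, 328 and 341 in WT HPCs, and 255 and 295 in KO HPCs. The 4 HE libraries were below all 6 others, and the log2 difference was -1.35 ± 0.14 (SE, adjusted p = 0.000165). PGD, the NADPH-forming enzyme of the oxidative branch, was at 342 and 349.8 TPM in KO hESCs, 221 and 172 in WT HEs, 208 and 192 in KO HEs, 255 and 242 in WT HPCs, and 237 and 239 in KO HPCs and had a log2 difference of -0.79 ± 0.15 (SE, adjusted p = 0.00388). In contrast, of the 7 tested genes in a list of other pentose phosphate genes, 3 rose and none fell: H6PD by 1.35, PGLS by 1.24 and RPIA by 0.77 on the log2 scale.

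Among the HIF pathway genes, EGLN1 (PHD2), the main oxygen-sensing hydroxylase, was at 3.51 and 7.41 TPM in KO hESCs, 28.9 and 32.4 in WT HEs, 39.0 and 42.8 in KO HEs, 18.3 and 20.5 in WT HPCs, and 20.5 and 14.2 in KO HPCs. The hESC libraries were below all others and the KO HE libraries above all others, with a log2 difference of 2.77 ± 0.31 (SE, adjusted p = 0.000246). EPAS1 was at 1.95 and 3.67 TPM in KO hESCs, 17.1 and 16.7 in WT HEs, 8.81 and 20.4 in KO HEs, 7.06 and 2.64 in WT HPCs, and 9.15 and 6.06 in KO HPCs, and the KO HE replicates differed more than 2-fold. Its log2 difference was 1.96 ± 0.50 (SE, adjusted p = 0.0168). The adjusted p was 0.121 without replicate 2 of KO HEs, 0.142 without replicate 1 of KO hESCs and 0.0565 without replicate 2 of KO hESCs. HIF1A was at 123 and 108 TPM in KO hESCs, 144 and 124 in WT HEs, 105 and 108 in KO HEs, 94.0 and 74.0 in WT HPCs, and 113 and 97.3 in KO HPCs, and its KO HE and hESC libraries overlapped. VHL lay between 25.9 and 39.5 TPM in the 10 libraries. EGLN3 (PHD3), at 34.4 and 24.4 TPM in hESCs and 17.8 and 17.1 TPM in KO HEs, went the other way from EGLN1. Its log2 difference of -0.70 ± 0.27 (SE, adjusted p = 0.082) did not pass the test. Of the PDK genes, PDK1 and PDK3 lay higher in both KO HE libraries than in both hESC libraries, with log2 differences of 0.68 ± 0.29 (SE, adjusted p = 0.117) and 1.00 ± 0.33 (SE, adjusted p = 0.0522) that did not pass the test. PDK1 passed it without replicate 2 of KO hESCs (adjusted p = 0.00598). PDK2 overlapped between these groups, and PDK4 did not exceed 0.35 TPM in any library.

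Known HIF targets outside glycolysis rose along with these genes. Of 26 tested genes of such a list, 19 rose and 3 fell from KO hESCs to KO HEs, with a median log2 difference of 2.13. The largest rises were 5.12 for ANGPTL4, a secreted regulator of lipoprotein lipase, 4.86 for NDRG1, a stress-responsive protein, and 3.75 for P4HA2, a collagen prolyl hydroxylase. ANGPTL4 was at 0.670 and 1.84 TPM in hESCs and 70.8 and 78.5 TPM in KO HEs. The 3 that fell were ADM by 2.02, HMOX1 by 1.52 and CA12 by 1.38 on the log2 scale. Some of these genes have other inputs and cell-type patterns, and no test of HIF activity was made. In a list of other glycolytic and gluconeogenic genes, 4 of 19 rose and 4 fell. PFKFB4 and PFKFB3, which make the activator of phosphofructokinase, rose by 2.97 and 2.01, and the phosphoglucomutase PGM1 by 1.503, while LDHD fell by 3.10 and PFKFB2 by 1.205 on the log2 scale. Of 10 tested genes for the entry of pyruvate into mitochondria, 5 fell and none rose, among them the pyruvate dehydrogenase phosphatase PDP2 at -1.36 and the complex subunits DLAT at -1.03 and PDHX at -0.93. Among 16 other hexose and lactate transport genes 2 rose and 4 fell, and among 12 other HIF pathway genes none rose and 2 fell, ARNT2 (-2.38) and TCEB2 (-0.66). Beside the 13.9% higher and 16.1% lower among all genes, 2 of 16 and 2 of 12 lie near the background.

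The promoters of some of these genes hold the core letters of the hypoxia response element. Windows of 300 bases, from 250 before to 50 after the annotated start, were taken from RefSeq (GRCh38.p14) for the 30 genes that matched, and the first listed window of each symbol was searched on both strands for ACGTG and GCGTG. SLC2A3, SLC16A1 and VHL did not match. At least 1 of these motifs was found for 18 of 30 genes (60.0%), against 48.4% of 27305 symbols. ACGTG alone was found in 36.7% of the 30 windows against 21.6%, and GCGTG in 43.3% against 36.3%. By direction in KO HEs against KO hESCs, 14 of 17 genes that rose (82.4%), 2 of 5 that fell and 2 of 7 others that were tested had a match. These shares are a description of short letter strings and were not tested, and a match is not a bound site. CACGTG reads as ACGTG on both strands and was counted on each. Counted this way LDHA held the most matches, among them CACGTG sites counted on both strands. SLC16A3, with the largest rise, held none in its first window. PFKP and TPI1 also rose without a match there, while LDHB and PGD fell with at least 1. The 250 bases before the start are shown for 2 genes that rose and hold a match, PGK1 and EGLN1, and for the 2 pentose phosphate genes that fell most and hold none, TKT and TALDO1, 5′ to 3′ on the gene's strand with motif letters in capitals (CACGT is ACGTG on the other strand).
PGK1 (GRCh38 chrX:78103998-78104247, plus strand): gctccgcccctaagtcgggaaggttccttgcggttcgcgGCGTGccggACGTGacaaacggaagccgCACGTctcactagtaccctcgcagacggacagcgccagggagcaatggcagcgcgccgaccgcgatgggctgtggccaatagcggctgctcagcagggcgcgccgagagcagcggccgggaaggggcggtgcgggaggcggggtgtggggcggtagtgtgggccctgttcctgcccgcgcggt
EGLN1 (GRCh38 chr1:231422288-231422537, minus strand): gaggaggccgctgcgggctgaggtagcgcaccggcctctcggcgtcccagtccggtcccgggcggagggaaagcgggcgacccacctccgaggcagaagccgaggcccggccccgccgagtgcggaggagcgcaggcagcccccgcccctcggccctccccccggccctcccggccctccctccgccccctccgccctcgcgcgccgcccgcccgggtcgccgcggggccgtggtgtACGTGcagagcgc
TKT (GRCh38 chr3:53256023-53256272, minus strand): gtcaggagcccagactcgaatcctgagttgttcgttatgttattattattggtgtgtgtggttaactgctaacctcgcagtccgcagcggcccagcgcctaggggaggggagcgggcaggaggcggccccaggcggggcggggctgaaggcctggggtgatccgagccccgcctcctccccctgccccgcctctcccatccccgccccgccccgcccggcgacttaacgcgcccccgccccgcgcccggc
TALDO1 (GRCh38 chr11:747214-747463, plus strand): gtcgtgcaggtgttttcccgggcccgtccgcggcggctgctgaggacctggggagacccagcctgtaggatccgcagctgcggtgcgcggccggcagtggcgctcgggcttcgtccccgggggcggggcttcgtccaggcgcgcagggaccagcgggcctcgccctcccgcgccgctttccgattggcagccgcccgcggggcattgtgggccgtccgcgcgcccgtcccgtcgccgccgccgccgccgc
In PGK1 the matches shown begin 211, 202 and 183 bases before the start, and in EGLN1 13 bases before it. PGK1 also holds ACGTG on the other strand 29 bases after the start, beyond the bases shown.

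KO HPCs were then compared with the same KO hESC libraries. Of 32 genes, 10 rose, 4 fell and 18 did not pass the test, where 14.2% of all genes were higher and 16.4% lower. SLC16A3 (5.42), LDHA (1.58), EGLN1 (1.55), SLC2A3 (0.99) and ALDOA (0.99) had the largest rises on the log2 scale, and the other 5 were HK2, PFKL, PFKP, PGK1 and ENO1 at 0.53 to 0.90. TKT (-1.56), PGAM1 (-0.70), LDHB (-0.65) and PGD (-0.54) fell. Of these 14 calls, PFKP, PGK1, ENO1, SLC2A3 and PGD were lost when either hESC library or replicate 1 of KO HPCs was left out, and HK2 without replicate 1 of KO hESCs or either KO HPC library. Without replicate 2 of KO HPCs, ENO1 and PGD were also lost. Leaving out replicate 1 of KO HPCs or replicate 1 of KO hESCs left 9 and 8 genes past the threshold. SLC2A1, higher in KO HEs, had a log2 difference of -0.40 ± 0.16 (SE, adjusted p = 0.0976) in KO HPCs against hESCs. TALDO1 was in the same range in KO HPCs as in hESCs. Of the HIF targets outside glycolysis, 17 of 26 rose and 3 fell.

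The step from HEs to HPCs was measured in both genotypes, in libraries that the comparisons do not share. In WT, 1 gene rose (TALDO1) and 4 fell (SLC2A1, HIF1A, ENO1 and PGAM1), where 3.32% of all genes were higher and 6.59% lower in WT HPCs. In KO, 1 gene rose (TALDO1) and 11 fell, where 5.50% of all genes were higher and 7.24% lower in KO HPCs. Those 11 were SLC2A1, EGLN1, PGK1, ALDOC, ENO1, PGAM1, PFKL, PKM, TPI1, GAPDH and ALDOA, of which 5 passed the test after TPM were rescaled without mitochondrially encoded and globin genes. The median log2 difference of the 32 genes was -0.30 in WT and -0.45 in KO, against -0.01 and 0.03 for all genes. SLC2A1, PGAM1, ENO1 and TALDO1 passed the test the same way in both genotypes. The sign was the same for 28 of 32 genes (87.5%), against 67.6% of all genes, and it differed for HK1, ALDOA, ENO2 and SLC16A1. Glycolytic enzymes took 2.07% ± 0.01 of all TPM in WT HPCs and 1.77% ± 0.06 in KO HPCs (SD, n = 2), below both HE groups. The endothelial, pan-hematopoietic, erythroid, megakaryocyte and stromal sums and the mitochondrial share given above moved with this stage, and their part in the result was not tested.

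TALDO1 was the only one of the 33 genes that rose with the deposited scaling. Its levels, listed above, were 2 to 3 times higher in the HPC libraries than in the HE libraries with no overlap in either genotype, and the log2 differences were 1.33 ± 0.14 (SE, adjusted p = 0.000821) in WT and 1.25 ± 0.14 (SE, adjusted p = 0.000866) in KO. H6PD, a pentose phosphate enzyme of the endoplasmic reticulum, fell by 1.29 in WT and 1.31 in KO on the log2 scale. TKT and PGD had positive log2 differences that did not pass the test, 0.41 and 0.15 for TKT and 0.34 and 0.25 for PGD.

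SLC2A1 had the largest fall in both genotypes among the genes that passed the test, and every HPC library was below every HE library and below both hESC libraries. Its log2 differences, HPC minus HE, were -1.07 ± 0.16 (SE, adjusted p = 0.00425) in WT and -1.35 ± 0.16 (SE, adjusted p = 0.00114) in KO. SLC2A3, in contrast, overlapped between the stages. PGAM1, the phosphoglycerate mutase, was at 936 and 877 TPM in KO hESCs, 910.1 and 888 in WT HEs, 971 and 1002 in KO HEs, 621 and 580.1 in WT HPCs, and 618 and 500.5 in KO HPCs, with all 4 HPC libraries below the other 6. Its log2 differences were -0.58 ± 0.14 (SE, adjusted p = 0.0293) in WT and -0.82 ± 0.14 (SE, adjusted p = 0.00492) in KO, and the WT call was lost without either WT HE, either WT HPC or either hESC library. For ENO1 they were -0.59 ± 0.15 (SE, adjusted p = 0.0464) and -0.85 ± 0.15 (SE, adjusted p = 0.00791), and the WT call was lost whichever library was left out.

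For the other genes that passed only in KO, the WT values were on the same side except for ALDOA, whose WT difference changed sign with quantile normalization (-0.13). PGK1 differed by -1.04 ± 0.19 (SE, adjusted p = 0.009) in KO and by -0.56 ± 0.19 (SE, adjusted p = 0.119) in WT on the log2 scale. EGLN1 differed by -1.21 ± 0.31 (SE, adjusted p = 0.0355) in KO and -0.63 ± 0.31 (SE, adjusted p = 0.281) in WT. ALDOC differed by -0.91 and -0.81, PFKL by -0.78 and -0.45, and PKM by -0.62 and -0.41. GAPDH differed by -0.59 in KO and -0.18 in WT, TPI1 by -0.59 and -0.27, and ALDOA by -0.49 and 0.07. None of these genotype differences passed the interaction test, described further on. Without replicate 2 of KO HEs, 3 genes passed in KO (SLC2A1, PGAM1 and TALDO1), and without replicate 1, 5 did. Without replicate 1 of KO HPCs 6 genes passed, and without replicate 2, 4 did. In WT, 2 to 4 genes passed when 1 of the 10 libraries was left out, TALDO1 and SLC2A1 each time. With all TPM rescaled after leaving out mitochondrially encoded and globin genes, 2 genes were higher and 5 lower in KO, and 1 higher and 2 lower in WT. With quantile normalization, 3 were higher and 9 lower in KO. The rescaling moved the median log2 difference of all genes in KO by 0.12, to 0.15, and turned the split of all genes from 1185 higher and 1560 lower to 1628 higher and 1330 lower. SLC2A1, PGAM1, PGK1, ENO1 and PFKL still passed the test below it, and LDHB joined TALDO1 above it.

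HIF1A fell from WT HEs to WT HPCs by 0.68 on the log2 scale (adjusted p = 0.0407), a call lost in 9 of 10 settings that left out 1 library, and the KO difference was -0.02 ± 0.17 (SE, adjusted p = 0.991). EPAS1, higher in both WT HE libraries than in both WT HPC libraries, had log2 differences of -1.72 ± 0.50 (SE, adjusted p = 0.0641) in WT and -0.78 ± 0.50 (SE, adjusted p = 0.376) in KO. The lactate genes did not pass the test, with LDHA at -0.50 in WT and -0.48 in KO and LDHB at 0.38 and 0.38. Of 26 HIF targets outside glycolysis, 8 fell and none rose in WT, while 8 fell and 1, HMOX1, rose in KO. ANGPTL4 (-2.95 and -3.42), ADM (-2.57 and -2.15) and NDRG1 (-2.04 and -2.96) had the largest falls in WT and KO. In the list of other glycolytic genes, PKLR, the pyruvate kinase of liver and red cells, rose by 2.68 in WT and 3.56 in KO, and C12orf5 (TIGAR), PFKFB3 and PGM1 fell in both. PKLR reached 6.24 and 13.4 TPM in WT HPCs and 9.16 and 22.97 TPM in KO HPCs, beside 1381 and 1118 TPM of PKM in WT HPCs. TXNIP, an inhibitor of glucose uptake, rose by 1.29 and 2.13, and SLC2A6 fell by 2.05 and 2.37. CITED2, which competes with HIF-α for its coactivators, rose by 1.49 and 2.41. None of the 10 genes of pyruvate entry passed the test in either genotype.

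**Figure D3:**
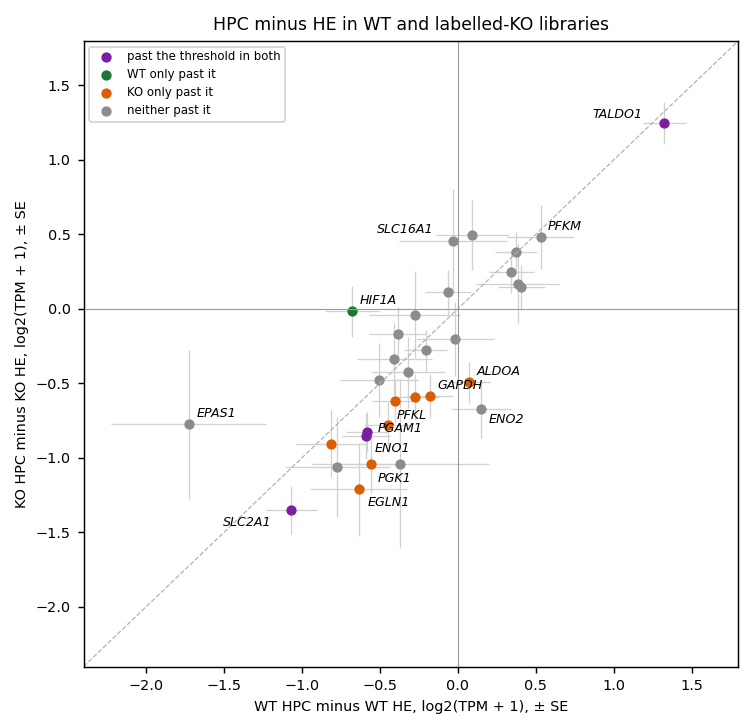
Difference in log2(TPM + 1) between HPCs and HEs in WT (horizontal axis) and in KO (vertical axis) for the 32 tested genes, with bars of 1 SE from limma and a dashed line of equal differences. TALDO1 stands at the upper right, SLC2A1 at the lower left, and most genes lie below 0 on both axes.

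Shares of an isoenzyme within its family do not depend on the scaling of a library by other genes. For 15 such shares the 4 HPC libraries were compared with the 4 HE libraries by an exact two-sided permutation test, whose smallest possible p is 0.0286. Each stage pooled 2 WT and 2 KO libraries, so that n = 4 and its SD mix the genotypes. No share passed after adjustment over the 15 (smallest adjusted p = 0.0714), although in 6 the stages did not overlap. With that smallest possible p, 6 fully separated shares cannot pass an adjustment over 15. The adjusted result therefore does not decide whether these shares differ. SLC2A3 made up 58.3% ± 5.97 (SD, n = 4) of SLC2A1 plus SLC2A3 in HEs and 75.0% ± 2.09 in HPCs. LDHB made up 26.2% ± 3.66 of LDHA plus LDHB in HEs and 39.3% ± 4.50 in HPCs, between HEs and the 73.0% mean of the hESC libraries. PFKM made up 8.37% ± 1.10 of the phosphofructokinase subunits in HEs, 15.4% ± 1.26 in HPCs and 29.2% on average in hESCs. EGLN3 made up 31.0% ± 2.71 of EGLN1 plus EGLN3 in HEs and 51.6% ± 5.68 in HPCs, against 83.7% on average in hESCs. HK2 made up 20.6% ± 2.37 of the hexokinases in HEs and 16.4% ± 0.90 in HPCs, and EPAS1 11.5% ± 3.38 and 5.94% ± 1.79 of HIF1A plus EPAS1. These 6 had an exact p of 0.0286 each. PFKP held nearly the same share, 48.7% ± 3.13 in HEs and 48.4% ± 3.91 in HPCs (difference -0.31 percentage points, exact permutation p = 0.886), and PFKL 43.0% ± 2.92 and 36.3% ± 4.93. ALDOC was a minor form of aldolase, at 1.69% to 4.63% in the 8 libraries, as was ENO2 among enolases, at 2.22% to 3.88%. SLC16A3 made up 82.5% ± 5.58 and 71.7% ± 6.89 of the 2 lactate transporters.

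Between genotypes within a stage, no gene of the 33 passed the test in limma. In KO HEs against WT HEs, 4 of 21543 genes did (0.0186%), and in KO HPCs against WT HPCs 13 did (0.0603%). At an unadjusted p under 0.05, PGK1 and ENO2 were higher and PDK2 lower in KO HEs, and ALDOA and GAPDH were lower in KO HPCs. The same cut held for 1045 of all 21543 genes in HEs and 1925 in HPCs, in either direction. Libraries of the 2 genotypes did not overlap for 16 genes in HEs, 13 of them higher and 3 lower in the libraries labelled GATA2-/-. Over all genes tested, 13.8% were higher and 16.5% lower in that way. Of the 12 erythroid marker genes, 8 were lower without overlap in KO HEs, as were 4 of the 6 megakaryocyte and platelet genes, and the part of these in the result was not tested. In HPCs, 5 genes were higher and 10 lower without overlap, where 19.7% of all genes were higher and 13.0% lower. Of the 15 glycolytic enzymes, 9 were higher and none lower without overlap in HEs, and 3 were higher and 4 lower in HPCs. The median log2 difference of the 15 was 0.17 in HEs and -0.04 in HPCs.

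PDK2, the widely expressed PDK kinase, was at 17.1 and 15.9 TPM in KO hESCs, 34.5 and 27.7 in WT HEs, 20.5 and 15.8 in KO HEs, 37.7 and 29.0 in WT HPCs, and 28.7 and 23.2 in KO HPCs. Both KO libraries lay below both WT libraries in HEs and in HPCs. The log2 differences were -0.75 (95% interval -1.28 to -0.22, limma adjusted p = 0.7925) in HEs and -0.34 (95% interval -0.87 to 0.18) in HPCs. These intervals are not adjusted for the number of genes. PDK3 was at 7.25 and 9.22 TPM in KO hESCs, 8.18 and 13.6 in WT HEs, 19.1 and 15.7 in KO HEs, 6.16 and 5.43 in WT HPCs, and 10.01 and 6.02 in KO HPCs, higher in KO HEs than in WT HEs without overlap. Its log2 difference was 0.66 (95% interval -0.10 to 1.42) in HEs and 0.37 (95% interval -0.39 to 1.13) in HPCs. PDK2 thus made up 28.4% and 26.1% of PDK TPM in KO HEs against 50.01% and 40.1% in WT HEs, and PDK3 26.4% and 26.0% against 11.8% and 19.8%. PGK1 in HEs differed by 0.49 (95% interval 0.05 to 0.93, limma adjusted p = 0.955), and SLC16A3 by 0.37 (95% interval -0.92 to 1.66), an interval that spans a wide range on both sides of 0. TALDO1 was lower in both KO libraries at each stage, by log2 differences of -0.20 (95% interval -0.52 to 0.12) in HEs and -0.28 (95% interval -0.60 to 0.04) in HPCs. GAPDH differed by -0.39 (95% interval -0.72 to -0.05, limma adjusted p = 0.48) in HPCs, where mitochondrially encoded genes took more of the TPM in KO. Their part in this was not tested.

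The change of the genotype difference between stages was tested as an interaction. None of the 33 genes and none of all genes tested (0%) passed in limma, with 3 and 1281 genes at an unadjusted p under 0.05. The 3 were HIF1A, ALDOA and ENO2, with interaction terms of 0.66, -0.56 and -0.82 on the log2 scale. HIF1A was lower in both KO libraries in HEs, by a log2 difference of -0.33 (95% interval -0.72 to 0.06), and higher in both in HPCs, by 0.33 (95% interval -0.06 to 0.72). ALDOA and ENO2 were higher in both KO libraries in HEs (0.19 and 0.46) and lower in both in HPCs (-0.38 and -0.37) on the log2 scale. For the other genes of the pathway, no gene of the 6 lists passed in either genotype comparison.

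Many of these enzymes have processed copies in the genome, which short reads can be split between. Of the 33 genes, 17 had such copies listed, 113 in all. The summed TPM of a gene's copies did not exceed 1.6% of the gene's own TPM in any library, except for EGLN1 with up to 13.7%.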

How the data were processed

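RNA-Seq was analysed in 10 libraries from H1 hESCs and their derivatives, 2 in each of 5 groups, with groups and replicate numbers taken from the sample labels. The study made TruSeq libraries and read them single-end on a MiSeq instrument. Adapters were removed by Trimmomatic, and Bowtie aligned the short reads to hg19. The values the authors deposited are TPM per gene for 56266 Ensembl genes. RSEM and the mouse build mm10 are also named in the submitters' processing notes, with no role given. TPM keeps no depth, so precision was judged only from the replicates. Differential expression by Cuffdiff in the study was not repeated.

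A linear model of log2(TPM + 1) was fitted to all 10 libraries together (limma 3.58.1, R 4.3.3, eBayes with trend). Genes that reached 1 TPM in 2 or more libraries entered (21543), p-values were adjusted over all of them by Benjamini-Hochberg, and 0.05 was the threshold. A difference is on the log2(TPM + 1) scale, which understates the change of low genes. The procedure was tested on simulated data. Isoenzyme shares were compared with exact two-sided permutation tests in Python 3.11.15 with scipy 1.17.1. Positions are from GENCODE v44 lifted to GRCh37 and promoter windows from RefSeq (GRCh38.p14). Current symbols matched 95.0% of gene IDs.

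The 33 genes, the other pathway lists and the marker lists were chosen with earlier results of these data known, so no list was tested as a set. All 33 genes are described. Of the other lists, the text names up to 3 rising and 3 falling genes with the largest log2 difference among those past the threshold in a comparison. Some genes of these lists are not reported here. Alternatives were a pseudocount of 0.1, no filter, a filter at a TPM of 5, quantile normalization, rescaling without mitochondrially encoded and globin genes, a replicate block, fits to the libraries of 1 comparison, eBayes without trend, and leaving out each library.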

Additional observations from a re-analysis of the deposited data

Results flagged for a closer look

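Of the isoenzyme shares, 2 had a library that stood apart from the 3 others of its stage. PDK3 made up 14.6% of PDK TPM in KO HPC replicate 1 and 9.41% to 10.1% in the other HPC libraries. PDK4 made up 0.2466% in WT HE replicate 2 and was listed at 0 in the other HE libraries, with under 1 TPM throughout. With 15 shares looked at in each of 2 stages, some such gaps can arise by chance, and how many was not computed. The PDK4 gap rests on 0.17 TPM.

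Of the 33 genes, 3 had opposite, non-overlapping genotype differences in the 2 stages. The share of all genes with such differences was not counted, so these 3 cannot be set against a background. Within 1 stage, 13.8% of all genes were higher and 16.5% lower without overlap in KO HEs, and 19.7% and 13.0% in KO HPCs. HK1, HK2, ALDOC, PDK1, PDK2 and TALDO1 differed without overlap in the same direction in both stages. The difference of KO minus WT in HPCs less that in HEs was -0.56 for ALDOA, -0.82 for ENO2 and 0.66 for HIF1A on the log2 scale. Tested as an interaction in limma, the adjusted p was 0.716, 0.699 and 0.755, so none passed.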

How the results depend on the processing

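With 2 libraries per group and no read depth, the spread is known only roughly. Of the 55 calls made on the 33 genes, none changed sign under any alternative. Of 24 calls in KO HEs against KO hESCs, 14 remained under every alternative, as did 4 of 14 in KO HPCs against KO hESCs, 0 of 5 in WT HPCs against WT HEs and 0 of 12 in KO HPCs against KO HEs. When fits to the 4 libraries of 1 comparison are set aside, these were 15, 7, 2 and 3.

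Genes of the 33 called in WT HPCs against WT HEs (5) were 2 with no filter, 3 after rescaling, 2 without trend and 0 when only the libraries of the comparison were used. Those in KO HPCs against KO HEs (12) were 6, 7, 5 and 0, and those in KO HPCs against KO hESCs (14) were 8 without trend and 5 with the libraries of the comparison alone. With the libraries of the comparison alone, limma called 0 of all genes in both HPC against HE comparisons (4423 and 5040 at an unadjusted p under 0.05) and in both genotype comparisons (1467 and 1613), and 4386 in KO HPCs against KO hESCs. This alternative leaves 2 residual degrees of freedom. Over all genes, calls in KO HEs against WT HEs (4) were 13 with no filter, 2 with the filter at a TPM of 5 and 12 without trend, and those in KO HPCs against WT HPCs (13) were 6 with a pseudocount of 0.1 and 20 without trend.

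Leaving out 1 library gave 2 to 4, 3 to 12 and 8 to 15 of the 33 genes in WT HPCs against WT HEs, KO HPCs against KO HEs and KO HPCs against KO hESCs. Over all genes it gave 849 to 2073, 1257 to 2685 and 4180 to 6550 calls there, 4075 to 6478 in KO HEs against KO hESCs, 0 to 1 and 0 to 14 in the genotype comparisons of HEs and HPCs, and 0 to 5 for the interaction.

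The difference of HIF1A in KO HPCs against KO HEs, near 0, turned to 0.165 with quantile normalization and 0.14 after rescaling, and ranged from -0.13 to 0.0933 without 1 library. That of ALDOA in WT was -0.13 with quantile normalization and -0.0555 to 0.20 without 1 library. The difference of the PFKP share was 0.04808 percentage points with quantile normalization. The ENO2 share differed by 1.52 points in WT and 0.31 in KO, and the SLC16A3 share by -3.78 and -17.9. The causes were not tested.

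Replicates 2 of the HE and HPC groups share a suffix in the file headers whose meaning is not given. Same-numbered libraries deviated together with r = 0.123 in HEs, 0.055 in HPCs and -0.014 to 0.032 between stages, so they were not taken as pairs. The erythroid sum was nevertheless higher in replicate 2 of both HPC groups. With the replicate block, none of the 55 calls was lost, and all-gene calls were 2 in HEs and 3 in HPCs between genotypes.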
